A study of Mus musculus with 30 samples.

Results

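The genes described here handle adenosine and other nucleosides, and 10 were followed: Nt5e, Ada, Slc28a1, Slc28a2, Slc28a2b, Slc29a1, Pnp, Xdh, Adk and Enpp3. Nt5e and Ada led to the choice because their signal was low 5 h after exendin-4 (Ex-4), and the others were listed with them as genes of the same route. The 10 genes had 18 of the 45281 probes of the array; the brightest probe of a gene, by its mean over the 30 arrays, gave its main value, and all 10 were among the 12941 genes tested. Pnp passed the filter on dim probes only just, being above the dim level in 3 of 30 arrays. The dim level, a log2 signal of 7.19, marks where probe signal could no longer be told from background.

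Total RNA came from mucosal scrapings of the jejunum of male C57BL/6 mice, 11 to 12 weeks old and not fasted, and was hybridised to Illumina mouse whole-genome beadchips. Each animal had been given 1 intraperitoneal dose of Ex-4 at 10 nmol/kg, of recombinant human Fgf7 at 1 mg/kg, or of PBS, the vehicle, and tissue was taken 1, 5 or 20 h later. There were 3 arrays per group at 1 h, 4 at 5 h and 3 at 20 h, 9 groups in all. Ex-4 is an agonist of the GLP-1 receptor, and Fgf7, or keratinocyte growth factor, stimulates epithelial growth through an Fgfr2 receptor. The labels call the arrays separate samples but do not say how animals were assigned to them, so a p-value here reflects how far these samples spread.

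Nucleosides reach the gut epithelium from food, from shed cells and from nucleotides released outside cells. Ectonucleotidases on the brush border break nucleotides down stepwise, Nt5e (CD73) turns AMP into adenosine, and transporters take the nucleosides up. Inside or at the surface of the cell, Ada turns adenosine into inosine, Pnp splits inosine into hypoxanthine, and Xdh oxidises hypoxanthine to urate, while Adk returns adenosine to AMP. In the mouse small intestine Nt5e, Ada, Slc28a2 and Enpp3 are known from enterocytes near the villus tip.

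The bases upstream of the annotated start are shown for Nt5e, Ada, Slc28a2 and Slc28a2b, whose signals deviated together between arrays of 1 group (below). This choice of 4 genes and of the motifs was made after their values and sequences had been seen. The sequences are from RefSeq (GRCm38.p6), 5′ to 3′ on the strand of the gene; that of Slc28a2 is the 172 bases that lie outside the annotated gene. In Nt5e and Ada, capitals mark matches to the GC box, GGGCGG. In Slc28a2 they mark the element read by GATA factors, AGATAA. In Slc28a2b they mark part of the HNF1 motif, GTTAAT, each searched on both strands.
Nt5e, chr9:88327359-88327608, plus strand: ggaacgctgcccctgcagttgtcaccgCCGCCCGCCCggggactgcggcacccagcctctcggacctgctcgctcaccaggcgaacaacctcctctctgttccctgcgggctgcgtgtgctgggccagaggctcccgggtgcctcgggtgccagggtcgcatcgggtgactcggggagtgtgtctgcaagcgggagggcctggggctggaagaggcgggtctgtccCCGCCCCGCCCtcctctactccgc
Ada, chr2:163750240-163750489, minus strand: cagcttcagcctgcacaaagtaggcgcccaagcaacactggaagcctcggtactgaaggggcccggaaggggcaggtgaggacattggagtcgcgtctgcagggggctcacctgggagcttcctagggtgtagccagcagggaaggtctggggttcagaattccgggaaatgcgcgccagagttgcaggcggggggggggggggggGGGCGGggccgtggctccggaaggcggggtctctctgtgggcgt
Slc28a2, chr2:122426185-122426356, plus strand: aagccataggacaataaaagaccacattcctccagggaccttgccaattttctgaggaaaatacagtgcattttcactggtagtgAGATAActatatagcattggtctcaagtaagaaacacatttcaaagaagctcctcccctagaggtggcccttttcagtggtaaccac
Slc28a2b, chr2:122484691-122484940, plus strand: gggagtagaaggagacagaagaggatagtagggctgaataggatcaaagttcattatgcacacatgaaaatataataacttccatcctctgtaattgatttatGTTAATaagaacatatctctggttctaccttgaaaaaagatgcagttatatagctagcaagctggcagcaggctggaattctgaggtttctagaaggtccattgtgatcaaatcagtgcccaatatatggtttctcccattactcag

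The windows of Nt5e and Ada held 72% and 67.2% G and C, those of Slc28a2 and Slc28a2b 42.4% and 38.4%, against a median of 52.4% over all 32851 windows. In 250 bases upstream, Nt5e had 4 matches to the GC box, in 2 runs in which the matches overlap, and Ada had 1. Slc28a1 and Pnp also had 1 each and Adk 2, so 5 of the 9 genes with a window held a GC box. A GC box was present in 32.7% of all windows, the element of the GATA factors in 9.99% and the HNF1 letters in 6.43%. The letters TGACG, the core of the cAMP response element, found in 17.8% of windows, were present in 1 of the 9 genes that had a window, Adk, and the letters TATAAA, found in 12.4%, in Enpp3. No one of the 5 motifs was shared by the 4 windows shown. The table held no window for Xdh, 8 for Slc29a1 and 2 for Adk. For these 2 genes only the first window listed was searched, so an absent motif is absent from that window.

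The comparison of Ex-4 with PBS at 5 h chose the genes, so its values are given as a description, without a test. In bulk RNA from scrapings, fewer cells of a type and less RNA per cell cannot be told apart. Of the 10 genes, 6 had every Ex-4 array below every PBS array at 5 h: Nt5e, Ada, Slc28a2b, Slc28a1, Slc28a2 and Enpp3. Over all genes tested, 3.15% had arrays that were lower without overlap in this comparison, and 0.912% were called at an adjusted p under 0.05 in either direction. The median difference was -0.51 (log2) over the 10 genes and 0.0018 over all genes.

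Nt5e, the enzyme that makes adenosine from AMP, gave log2 signals of 8.79, 8.78, 8.57 and 9.15 in the Ex-4 arrays at 5 h, 9.97, 9.29, 9.49 and 9.83 in the Fgf7 arrays, and 10.11, 10.17, 10.41 and 9.52 in the PBS arrays. All Ex-4 arrays lay below all others of that time, while the Fgf7 and PBS arrays overlapped. The difference from PBS was -1.23 ± 0.25 (log2, SE, n = 4 each), 2.34-fold lower. A second Nt5e probe was lower by a log2 difference of -0.89 ± 0.21, also without overlap.

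At 1 h the Nt5e signals were 9.50, 9.89 and 10.63 with Ex-4, 9.91, 9.85 and 9.84 with Fgf7, and 9.56, 9.10 and 9.97 with PBS. At 20 h they were 10.28, 10.40 and 10.74 with Ex-4, 10.12, 10.52 and 9.61 with Fgf7, and 10.58, 9.55 and 9.79 with PBS. At neither time did the Ex-4 arrays lie below the PBS arrays, and at 20 h the Ex-4 group had the highest mean of the 9 groups. In the order of group means, Ex-4 at 5 h (8.82 ± 0.24, SD) stood 0.72 below the next, PBS at 1 h (9.54 ± 0.44), a gap beyond the larger SD of the pair. The 8 other groups ran up to 10.48 ± 0.24 (Ex-4 at 20 h), and no neighbours among them were farther apart than their larger SD.

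Enpp3, an ectonucleotide pyrophosphatase of the brush border, gave 7.77, 7.88, 7.62 and 7.98 in the Ex-4 arrays at 5 h, 8.12, 7.70, 8.24 and 8.26 in the Fgf7 arrays, and 8.08, 8.10, 8.41 and 8.30 in the PBS arrays. The Ex-4 arrays were below the PBS arrays by -0.41 ± 0.11 (log2, SE), and 1 Fgf7 array lay among them. Its probe lay close to the dim level, and after subtraction of the background signal the difference was -0.84. The second Enpp3 probe was above the dim level in 5 of 30 arrays and differed by -0.03 ± 0.05, so it was near background in most arrays.

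Ada, the deaminase that turns adenosine into inosine, gave 11.32, 11.87, 11.04 and 11.29 in the Ex-4 arrays at 5 h, 12.41, 12.21, 12.30 and 12.37 in the Fgf7 arrays, and 12.36, 12.58, 12.63 and 12.22 in the PBS arrays. Every Ex-4 array was below every other array of that time. The difference from PBS was -1.07 ± 0.19 (log2, SE), 2.10-fold lower. The second Ada probe gave -0.92 ± 0.25, but there 1 Ex-4 array, at 11.38, lay inside the PBS range of 11.15 to 11.99.

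Ada signals at 1 h were 11.75, 12.49 and 12.67 with Ex-4, 12.86, 12.48 and 12.14 with Fgf7, and 12.03, 11.91 and 12.31 with PBS. At 20 h they were 12.33, 11.94 and 12.68 with Ex-4, 12.60, 12.58 and 12.46 with Fgf7, and 12.72, 12.44 and 12.11 with PBS. The groups overlapped at both times. Ex-4 at 5 h (11.38 ± 0.35, SD) was the lowest of the 9 groups, 0.71 below PBS at 1 h, and the 8 others lay between 12.08 and 12.55 with no gap beyond their spread.

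**Figure D1:**
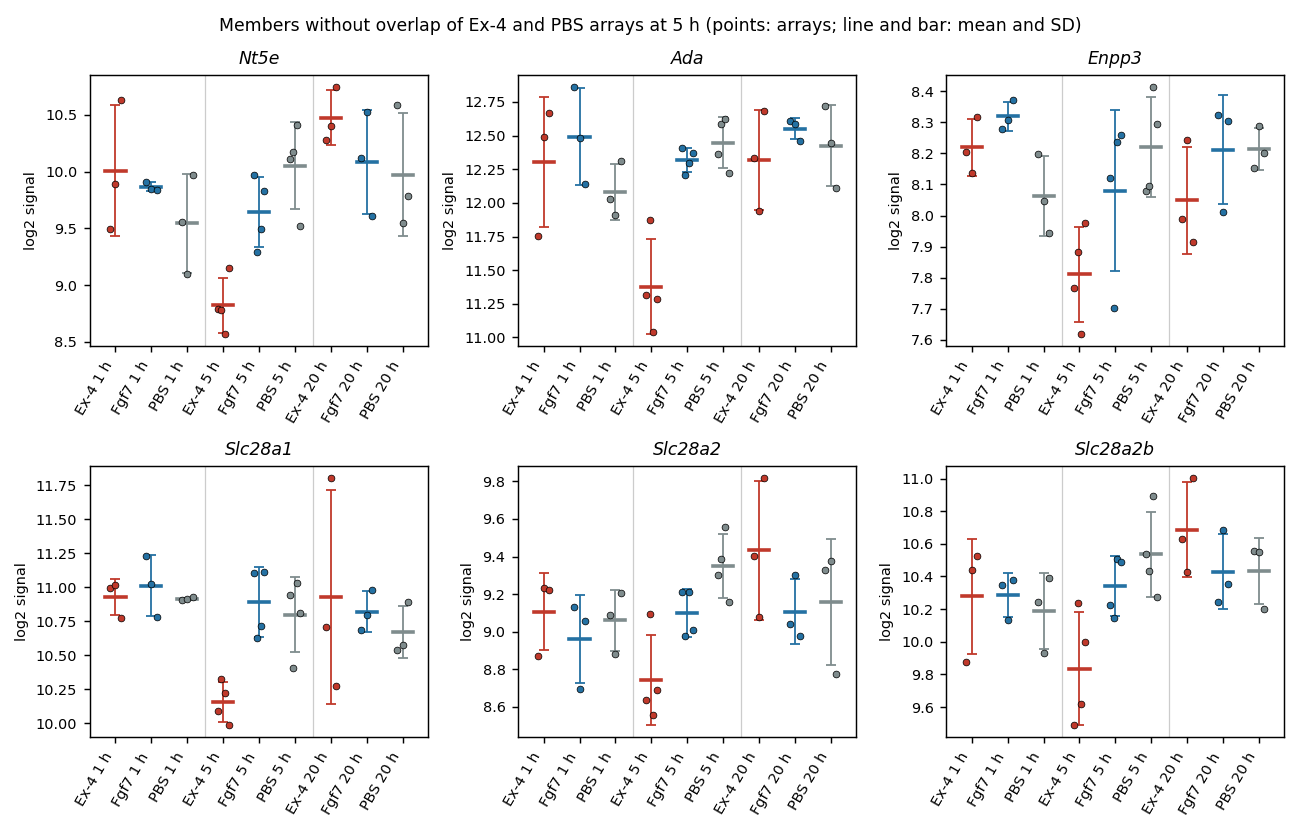
Log2 signal of the 6 genes whose Ex-4 arrays lay below all PBS arrays at 5 h, by agent and time (Ex-4 red, Fgf7 blue, PBS grey); points are arrays, lines group means and bars SD. In each panel Ex-4 at 5 h has the lowest mean of the 9 groups, as in Nt5e, at 8.82. For Slc28a2 the gap to the next group, 0.22, is within the larger SD of the pair, 0.24. For Slc28a2b the gap of 0.352 is barely beyond that SD, 0.345.

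Of the 4 concentrative nucleoside transporters tested, which bring nucleosides in together with sodium, 3 were lower with Ex-4 at 5 h as well. The other, Slc28a3, which is no member and takes up purine and pyrimidine nucleosides, had a mean of 7.36 with Ex-4 and 7.42 with PBS, close to the dim level, and differed by -0.06 ± 0.07 (log2, SE, adjusted p = 0.853). Slc28a1, which prefers pyrimidine nucleosides, gave 10.09, 10.32, 10.22 and 9.99 in the Ex-4 arrays, 11.10, 10.63, 10.72 and 11.11 in the Fgf7 arrays, and 10.94, 10.41, 11.03 and 10.81 in the PBS arrays. Its Ex-4 arrays were below all others at 5 h, with a difference from PBS of -0.64 ± 0.20 (log2, SE). Slc28a2, which prefers purine nucleosides, gave 8.64, 9.09, 8.55 and 8.69 with Ex-4, 9.21, 8.98, 9.21 and 9.01 with Fgf7, and 9.30, 9.39, 9.56 and 9.16 with PBS, a difference from PBS of -0.61 ± 0.15. Its highest Ex-4 array, at 9.09, lay inside the Fgf7 range. Slc28a2b, the neighbouring copy of Slc28a2 on chromosome 2, gave 9.49, 10.24, 9.62 and 10.00 with Ex-4, 10.22, 10.15, 10.51 and 10.49 with Fgf7, and 10.54, 10.43, 10.89 and 10.27 with PBS, a difference from PBS of -0.70 ± 0.17. The array highest for Slc28a2 among the 4 Ex-4 arrays was also the highest for Slc28a2b and for Ada. The probe sequences were not used here, so signal shared between these 2 copies cannot be told apart.

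Slc29a1, the equilibrative transporter that moves nucleosides in either direction, gave 8.14, 7.81, 8.17 and 7.95 in the Ex-4 arrays at 5 h, 8.28, 8.60, 8.29 and 7.67 in the Fgf7 arrays, and 8.05, 7.95, 8.06 and 7.70 in the PBS arrays. The 3 groups overlapped, and the difference between Ex-4 and PBS was 0.08 ± 0.13 (log2, SE). Xdh, the oxidase at the end of the route, gave 12.32, 12.22, 12.07 and 12.35 with Ex-4, 12.18, 12.22, 12.37 and 12.50 with Fgf7, and 12.19, 12.51, 12.37 and 12.40 with PBS. Its difference from PBS was -0.13 ± 0.11, with overlap. Adk, the kinase that returns adenosine to AMP, differed by 0.05 ± 0.06. Its Ex-4 arrays at 5 h (11.58, 11.60, 11.72 and 11.62) had the highest mean of the 9 groups on the main probe, though not on its further probes. Pnp gave 7.03, 7.09, 7.11 and 7.01 with Ex-4 and 7.17, 7.02, 7.15 and 6.98 with PBS at 5 h, all below the dim level, so no level of it could be compared.

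**Figure D2:**
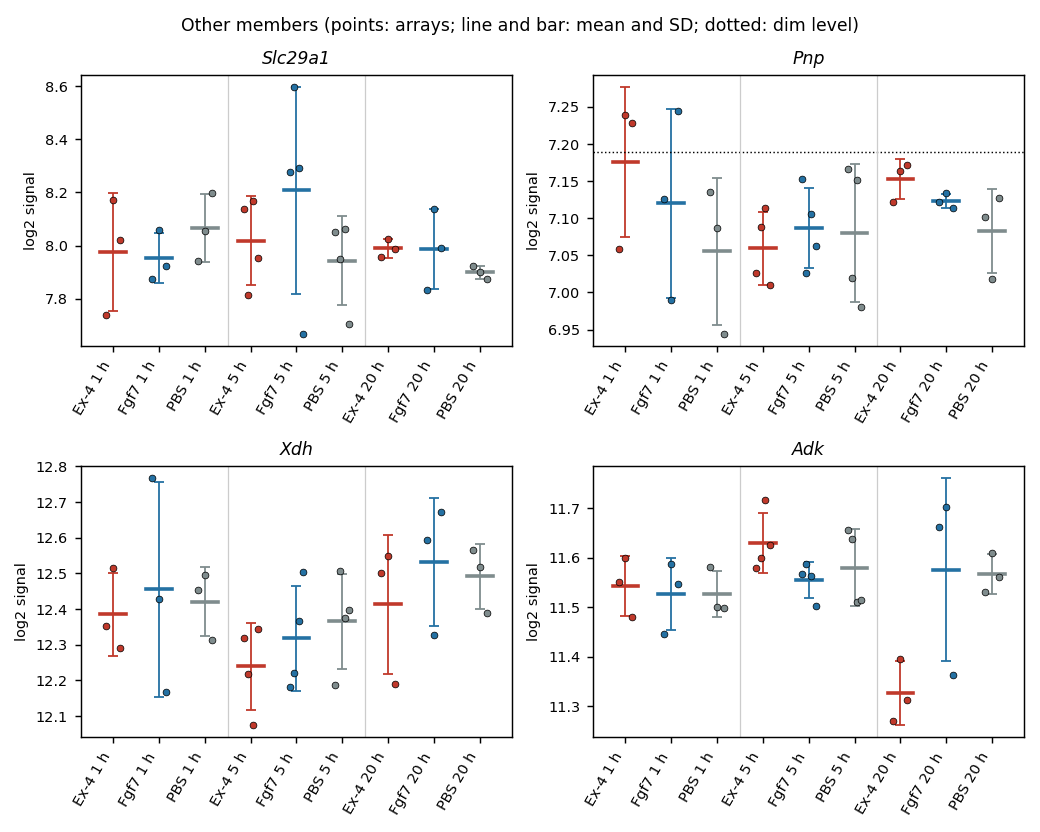
Log2 signal of Slc29a1, Pnp, Xdh and Adk by agent and time (Ex-4 red, Fgf7 blue, PBS grey); points are arrays, lines group means, bars SD, and the dotted line the dim level of 7.19. The groups overlap at 5 h in all 4 genes, and Ex-4 at 20 h is lowest for Adk, at 11.33.

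Against Fgf7 at 5 h, where 0.572% of all genes were called in either direction, the same arrays of Ex-4 at 5 h were lower without overlap in 3 of the 10 genes, Nt5e (-0.82 ± 0.25), Ada (-0.94 ± 0.19) and Slc28a1 (-0.74 ± 0.20, log2, SE). Over all genes 2.91% were lower without overlap in this comparison, which shares the Ex-4 arrays with the one that chose the genes and is also without a test. Enpp3, Slc28a2 and Slc28a2b differed by -0.27, -0.36 and -0.51, with overlap.

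Markers of other cells moved with the arrays and their part in these differences was not tested. Of 15 smooth muscle genes all were tested, 0 were called at 5 h and 15 had a lower mean with Ex-4 than with PBS; their mean centred signal ran between -0.23 and 0.85 in the Ex-4 arrays and between -0.35 and 1.95 in the PBS arrays. The highest values were in 4 arrays (Ex-4 at 5 h replicate 1, Fgf7 at 5 h replicate 2, PBS at 1 h replicate 3 and PBS at 5 h replicate 3). Without these 4 arrays the differences at 5 h were -1.10 for Nt5e, -0.99 for Ada, -0.54 for Slc28a1, -0.50 for Slc28a2, -0.46 for Slc28a2b and -0.33 for Enpp3. That of Slc28a2b thus became over 1.5 times smaller, while it was -0.68 with the smooth muscle signal as a covariate. Of 12 enterocyte markers 10 were tested, 8 had a lower mean with Ex-4 at 5 h and 0 were called; their mean centred signal ran between -0.18 and 0.14 in Ex-4 arrays and between -0.02 and 0.23 in PBS arrays. Anpep, the brush border aminopeptidase, differed by -0.29 ± 0.08 and Vil1, the villin of the microvilli, by -0.25 ± 0.07 (adjusted p = 0.0823 and 0.111). Of the 4 Paneth cell genes tested, 4 had a higher mean with Ex-4 at 5 h, with a median difference of 0.39 (log2), and their mean centred signal ran between 0.0053 and 0.41 in Ex-4 arrays and between -0.39 and 0.04 in PBS arrays. All 3 macrophage genes tested were higher in mean (median 0.31), with 0.12 to 0.35 in Ex-4 arrays and -0.66 to 0.31 in PBS arrays, as were all 3 B and plasma cell genes (median 0.18), with -0.10 to 0.30 in Ex-4 arrays and -0.37 to 0.10 in PBS arrays. Of 6 enteroendocrine genes 5 were lower in mean (median -0.19), with -0.28 to -0.0036 in Ex-4 arrays and -0.10 to 0.10 in PBS arrays. The medians of the 7 other marker lists lay between -0.22 (T cells, 2 genes) and 0.15 (endothelium, 4 genes), and 0 genes of any marker list were called at 5 h.

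Other genes known from the villus tip were looked at beside the 4 members of that kind. Of 9 such genes, all tested, 8 had a lower mean with Ex-4 at 5 h, 0 were called, and the median difference was -0.11 (log2), against 0.0018 over all genes. Krt20, a keratin of differentiated cells, differed by -0.13 ± 0.07 (adjusted p = 0.455), Cdkn1a, a cell cycle inhibitor, by -0.12 ± 0.07 (adjusted p = 0.572) and Egfr by -0.11 ± 0.08 (adjusted p = 0.659). Of the same 9 genes, 7 also had a lower mean with Fgf7 than with PBS at 5 h (median -0.06). Between Ex-4 and Fgf7 at 5 h, 5 were higher with Ex-4 and 4 lower (median 0.011). At 20 h, 6 of the 9 had a higher and 3 a lower mean with Ex-4 than with PBS. The median was 0.0085 against 0.0093 over all genes, and 2 were called, both lower, where 2.35% of all genes were called. Apobec1, the editing enzyme of the Apob message, was lower with Ex-4 at 20 h by -0.39 ± 0.10 (adjusted p = 0.0266) and Creb3l3, a transcription factor of lipid metabolism, by -0.38 ± 0.10 (adjusted p = 0.0282). Lct, the lactase of enterocytes, was lower at 20 h by -0.63 ± 0.13 (adjusted p = 0.00405) and was -0.28 ± 0.11 at 5 h (adjusted p = 0.299). The call of Apobec1 was lost without PBS replicate 1 or 2 or any 1 Ex-4 array of 20 h (adjusted p = 0.0567 to 0.118), that of Creb3l3 without PBS replicate 2 or 3 or Ex-4 replicate 1 or 3 (0.0554 to 0.203), and that of Lct without Ex-4 replicate 1 (0.0561). With the compared groups alone in the fit, the adjusted p was 0.0599 for Apobec1, 0.175 for Creb3l3 and 0.115 for Lct, and after background subtraction it was 0.0552 for Apobec1 and 0.0609 for Creb3l3.

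The remaining comparisons did not choose the genes and were tested with limma, with Benjamini-Hochberg adjustment over all 12941 genes. Fgf7 against PBS at 5 h shares its PBS arrays with the comparison that did. There, 0 of the 10 genes were called and 0 had an unadjusted p under 0.05, against 0.216% of all genes called. The difference was -0.41 for Nt5e (95% CI -0.91 to 0.10, adjusted p = 0.849), -0.13 for Ada (-0.52 to 0.26, adjusted p = 0.982), -0.25 for Slc28a2 (-0.56 to 0.06), -0.19 for Slc28a2b (-0.54 to 0.15) and 0.09 for Slc28a1 (-0.32 to 0.50). The interval of Nt5e leaves room for a fall of up to 0.91 on the log2 scale. Slc29a1 differed by 0.27 (-0.0027 to 0.53, adjusted p = 0.73); 3 of its Fgf7 arrays lay above all PBS arrays and 1, at 7.67, below them.

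At 1 h, 0 of the 10 genes were called for Ex-4 against PBS, where 0% of all genes were called, with 0 members at an unadjusted p under 0.05 against 375 of all genes. Nt5e differed by 0.46 (95% CI -0.12 to 1.05) and Ada by 0.22 (-0.23 to 0.67); leaving out 1 array gave 0.15 to 0.72 and 0.04 to 0.50, with none called. For Fgf7 against PBS at 1 h 0 members were called, against 0.00773% of all genes, and 1 had an unadjusted p under 0.05. That gene was Enpp3, with 8.28, 8.31 and 8.37 in the Fgf7 arrays and 8.20, 8.05 and 7.94 in the PBS arrays. The groups did not overlap, as for 8.21% of all genes that were higher, and the difference was 0.26 ± 0.12 (log2, SE, adjusted p = 0.642). Ex-4 against Fgf7 at 1 h gave 0 members called and 0 at an unadjusted p under 0.05, against 0.00773% of all genes called.

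Of the 10 genes, 0 were called against PBS at the 20 h time point of Ex-4, where 2.35% of all genes were called. Adk alone had an unadjusted p under 0.05. Its signals were 11.27, 11.40 and 11.31 in the Ex-4 arrays, 11.66, 11.70 and 11.36 in the Fgf7 arrays, and 11.53, 11.61 and 11.56 in the PBS arrays. All Ex-4 arrays lay below all PBS arrays, as for 7.18% of all genes that were lower, and 1 Fgf7 array lay among them. The difference from PBS was -0.24 ± 0.07 (log2, SE, n = 3 each, adjusted p = 0.0692 with limma). Of the 2 further Adk probes, 1 differed by -0.33 ± 0.13 without overlap (adjusted p = 0.335 with each probe tested) and 1 by -0.22 ± 0.11 with overlap (adjusted p = 0.542). On the main Adk probe Ex-4 at 20 h (11.33 ± 0.06, SD) was the lowest of the 9 groups, 0.20 below Fgf7 at 1 h, while the 8 others lay between 11.53 and 11.63. On the further probe with overlap, Fgf7 at 1 h was lowest, at 9.86, and Ex-4 at 20 h was at 9.92.

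Slc29a1 was the one member higher without overlap at 20 h, with 7.96, 8.03 and 7.99 in the Ex-4 arrays and 7.92, 7.90 and 7.88 in the PBS arrays, as for 7.94% of all genes. Its difference of 0.09 ± 0.15 had an adjusted p of 0.896. Nt5e was 0.50 higher (95% CI -0.08 to 1.09, adjusted p = 0.52), with overlap; it was 0.81 without PBS replicate 1 and 0.29 without PBS replicate 2, called in neither. On its second probe the Ex-4 arrays, at 9.09, 9.11 and 9.52, all lay above the PBS arrays, at 9.03, 8.28 and 8.78, but the difference of 0.55 ± 0.25 was not called (adjusted p = 0.424). Ada differed by -0.11 (-0.56 to 0.34) and Slc28a2 by 0.27 (-0.08 to 0.63). Slc28a1 spread widely in the Ex-4 group, at 10.71, 11.80 and 10.28.

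Ex-4 against Fgf7 at 20 h gave 0 members called, against 1.79% of all genes, and Adk had the 1 unadjusted p under 0.05, with a difference of -0.25 ± 0.07 (adjusted p = 0.0645). Without replicate 3 of the Fgf7 group, at 11.36, it was -0.36 and was called (adjusted p = 0.0016). Fgf7 against PBS at 20 h gave 0 members called and 0 at an unadjusted p under 0.05, against 0.0464% of all genes called. Between PBS at 20 h and PBS at 1 h, 0 members were called and 0 had an unadjusted p under 0.05, where 0% of all genes were called. In that comparison Slc28a1 and Slc29a1 were lower at 20 h without overlap, against 4.32% of all genes. The effect of Fgf7 at 5 h less that at 1 h was -0.73 for Nt5e (95% CI -1.50 to 0.04, adjusted p = 0.682) and -0.40 for Enpp3 (-0.73 to -0.06, adjusted p = 0.66).

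**Figure D3:**
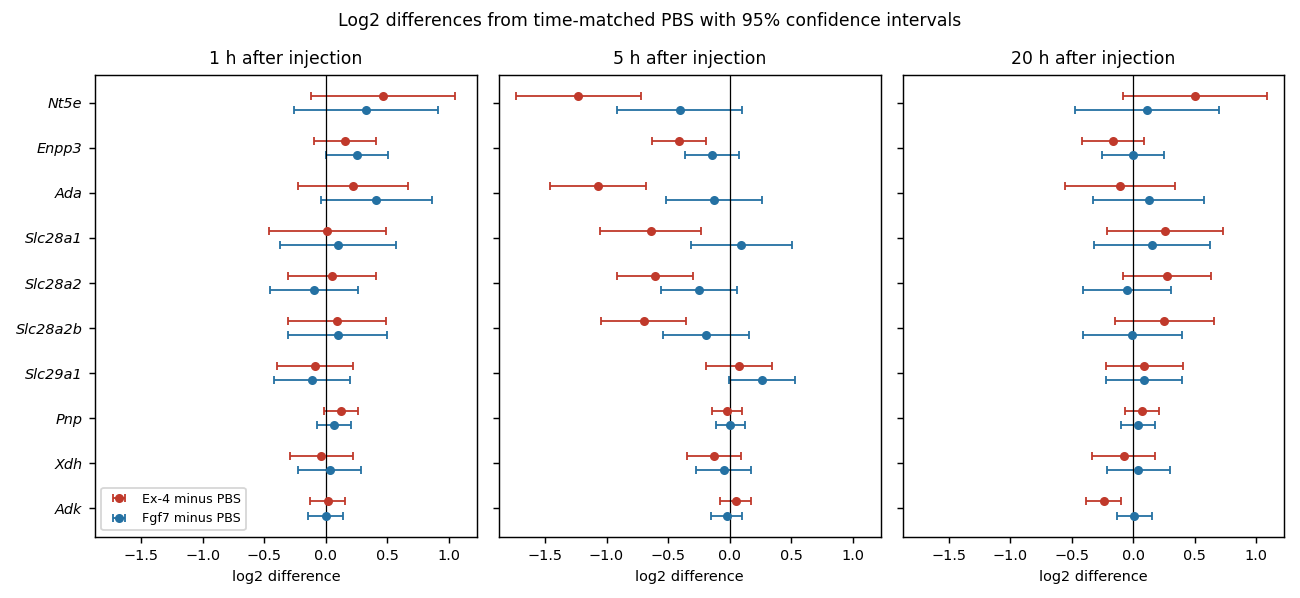
Log2 differences of the 10 genes from PBS of the same time (x axis), for Ex-4 (red, upper) and Fgf7 (blue, lower), with 95% confidence intervals from the limma fit. The Ex-4 intervals at 5 h chose the genes and are a description; at 1 and 20 h the interval of Ex-4 leaves out 0 only for Adk at 20 h.

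The wider nucleotide route was described with 77 genes that are no members, of which 70 were on the array and 61 were tested. At 5 h after Ex-4, 32 had a higher and 29 a lower mean than with PBS, with a median difference of 0.0082 (log2). Of the 61, 1 gene was called, where 0.912% of all genes were called. It was Ampd3, an AMP deaminase, which rose by 0.40 ± 0.08 (adjusted p = 0.0151). Its call was lost without PBS replicate 1 or 2 or Ex-4 replicate 3 or 4 of that time (adjusted p = 0.0569 to 0.116), and with the compared groups alone in the fit (0.235). Of the 8 genes tested from the list named ectonucleotidases and phosphatases, 7 had a lower mean and 0 were called, with a median of -0.24. Among them Entpd5, a nucleoside diphosphatase, differed by -0.33 ± 0.09 (adjusted p = 0.0782), Entpd2, which hydrolyses ATP outside cells, by -0.21 ± 0.08 (adjusted p = 0.256) and Entpd8, an ectonucleotidase, by -0.27 ± 0.12 (adjusted p = 0.385). Enpp7, a sphingomyelinase and so no nucleotidase by function, differed by -0.54 ± 0.21 (adjusted p = 0.285). The 8 genes also included Dpp4, a peptidase, and Alpi, which is in the list of enterocyte markers too.

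All 9 genes of purine synthesis tested had a higher mean with Ex-4 than with PBS at 5 h, with a median of 0.11 and 0 called. With Fgf7 at 5 h, 8 of these 9 were also higher than with PBS (median 0.19). Ex-4 against Fgf7 at 5 h split them into 5 higher and 4 lower (median 0.0048). For Ex-4 against PBS at 5 h, Atic, an enzyme of the last steps, differed by 0.43 ± 0.14 (adjusted p = 0.185). Among 24 genes of purine salvage and catabolism, Mtap, which splits methylthioadenosine, differed by 0.21 ± 0.07 (adjusted p = 0.173) and Pnp2, the second mouse purine nucleoside phosphorylase, by -0.26 ± 0.11 (adjusted p = 0.341). Of 16 pyrimidine genes 0 were called, and Dctd, a deoxycytidylate deaminase, differed by 0.42 ± 0.13 (adjusted p = 0.149). The 3 other nucleoside transporters tested lay between -0.07 and -0.01. Of the adenosine receptors only Adora3 was analysed here, and its signal, 7.10 with Ex-4 and 7.06 with PBS, was below the dim level.

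With Fgf7 at 5 h, 0.216% of all genes were called. The 1 gene called of the 61 was Cad, which carries out the first steps of pyrimidine synthesis and rose by 0.44 ± 0.10 (adjusted p = 0.0456). That call stood in 5 of 17 other fits. Among the fits that lost it were those without any 1 PBS array or any 1 of Fgf7 replicates 1, 2 and 3 of 5 h (adjusted p = 0.0626 to 0.254). The call of Cad was also lost when the 4 arrays rich in smooth muscle RNA were left out (0.372) and with the compared groups alone in the fit. Its probe lay near the dim level, and background subtraction gave a difference of 1.42 (adjusted p = 0.0689). At 20 h after Ex-4, 2 of the 61 were called, both lower, where 2.35% of all genes were called. Entpd5 fell by 0.64 ± 0.10 (adjusted p = 0.000379) and Samhd1, a hydrolase of deoxynucleotides, by 0.44 ± 0.10 (adjusted p = 0.0176). The call of Entpd5 stood in each of the 15 other fits (adjusted p at most 0.0276), while that of Samhd1 was lost without PBS replicate 1 or 2 or Ex-4 replicate 1 or 3 (0.0654 to 0.108), and with the compared groups alone in the fit (0.1205). The same 2 genes were called lower against Fgf7 at 20 h, by -0.52 (adjusted p = 0.00407) and -0.39 (adjusted p = 0.047), where 1.79% of all genes were called. There the call of Entpd5 was lost in 2 of 15 other fits, without Ex-4 replicate 1 (0.0513) and with the compared groups alone (0.102). That of Samhd1 was lost in 8 of 15: without replicate 1 or 3 of either agent (0.13 to 0.257), with the compared groups alone (0.191), after background subtraction (0.0813), with no dim filter (0.0598) and with each probe tested (0.064).

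**Figure D4:**
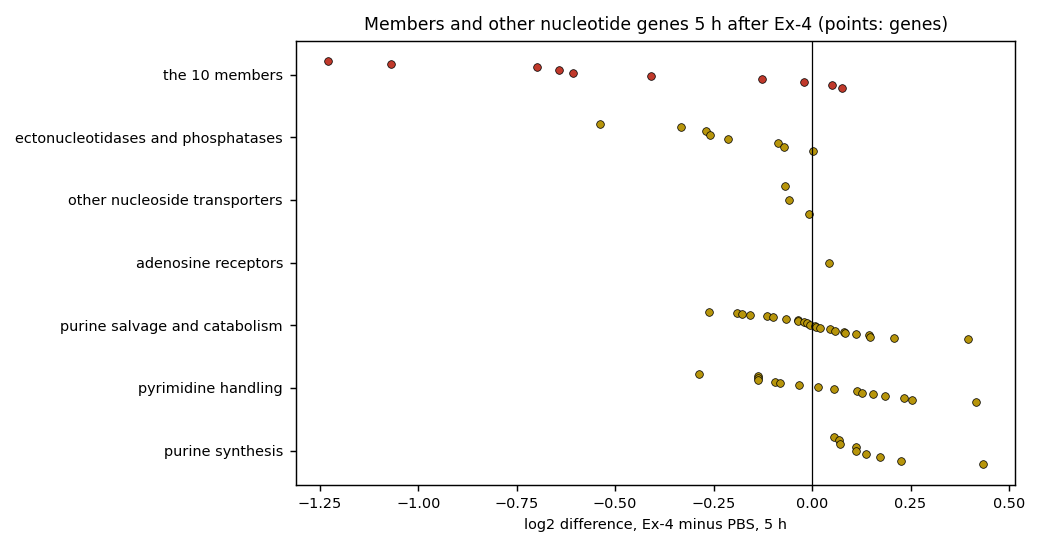
Log2 differences between Ex-4 and PBS at 5 h (x axis) for the 10 genes and for the tested genes of 6 lists of nucleotide metabolism; each point is a gene. The members, which were chosen on this comparison, reach -1.23, while the lists lie between -0.54 and 0.43.

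To see whether the members varied together where no agent differed, each array was set against the mean of its own group. Over the 30 arrays, Nt5e, Ada, Slc28a2 and Slc28a2b deviated together: the 6 pairs among them had Pearson's r of 0.51 to 0.84 (median 0.66) and Spearman's rho of 0.54 to 0.84. The points share arrays and normalisation, and the 4 genes were grouped after the values were seen, so these are descriptions. The highest r, 0.84, was between the copies Slc28a2 and Slc28a2b, where shared signal cannot be told apart. Likeness of same-numbered arrays of a time (given in the last section) was left in these deviations. Without the 2 farthest arrays, taken for the first gene of each pair, r was 0.49 to 0.83. Leaving out the 4 arrays rich in smooth muscle RNA gave 0.46 to 0.84. Among 12940 other genes, Slc28a2 ranked 1 and Slc28a2b 2 by r with the deviations of Ada (0.79 and 0.72), and Nt5e ranked 16 (0.60). The ranks with Nt5e were lower: Slc28a2b 11 (0.61), Ada 12 (0.60) and Slc28a2 89 (0.51). With Slc28a2, Slc28a2b ranked 1, Ada 2 and Nt5e 61.

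Slc28a1 and Enpp3, though also low with Ex-4 at 5 h, did not deviate with these 4 genes: the 8 pairs had r between -0.41 and 0.16. The lowest, between Slc28a1 and Slc28a2, was -0.05 without the 2 arrays farthest for Slc28a1 and so rests on them. Without the 4 arrays rich in smooth muscle RNA that pair stayed at -0.50, and the 8 pairs had r between -0.50 and 0.01. Slc28a1 and Enpp3 had r = 0.38 with each other, 0.22 without the 2 farthest arrays, and a rho of 0.29. Enpp3 deviated with the enterocyte markers (r = 0.70) and with the list of ectonucleotidases and phosphatases (0.59). Slc28a1 deviated with that list (0.67) and the villus tip genes (0.56). The list shares Alpi with the enterocyte markers and holds Dpp4 and Enpp7, which are no nucleotidases. Slc28a1 lay farthest from its group mean in 2 Ex-4 arrays at 20 h, by 0.87 and -0.65. The r with lists were computed over all arrays only, so how far they rest on these 2 is not known. Nt5e, Ada, Slc28a2 and Slc28a2b had r of -0.05, -0.19, -0.22 and 0.13 with the enterocyte markers, 0.28, 0.20, 0.23 and 0.23 with the smooth muscle markers, and 0.11, -0.05, -0.13 and 0.14 with the villus tip genes. With the B and plasma cell markers r was -0.47 for Nt5e and -0.37 for Ada, the farthest from 0 of the 13 marker lists for both, -0.13 for Slc28a2 and -0.31 for Slc28a2b. Slc29a1 ran the other way to Enpp3, with r of -0.65 with enterocyte, 0.69 with Paneth cell and 0.66 with crypt markers.

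**Figure D5:**
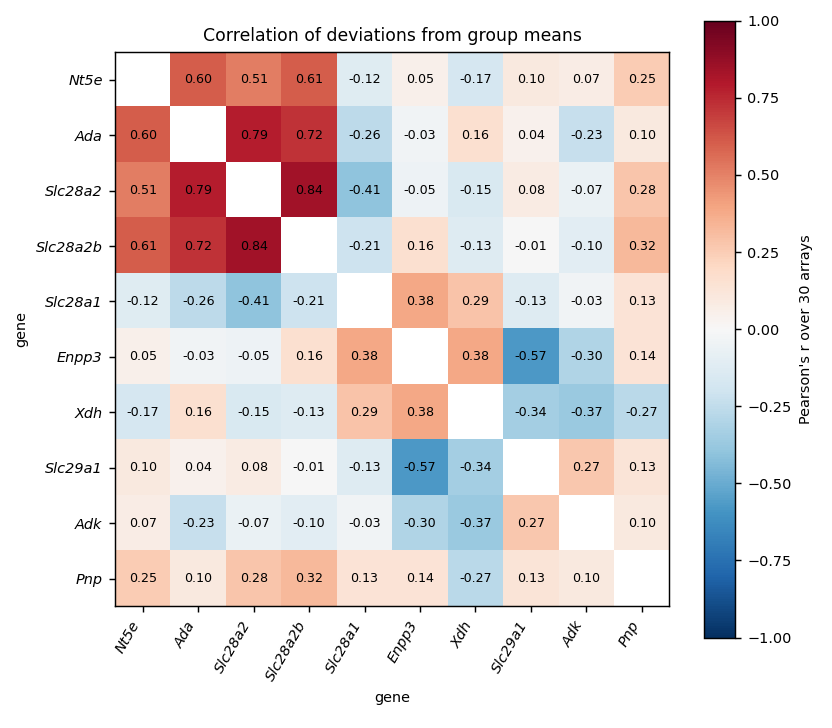
Pearson's r, over 30 arrays, between the deviations of each pair of the 10 genes from the group means (both axes are genes; red is positive, blue negative). Nt5e, Ada, Slc28a2 and Slc28a2b form a block of 0.51 to 0.84, and Slc28a1 and Enpp3 stand outside it.

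By the log2 values themselves over the 30 arrays, group differences included, the non-member genes most like Nt5e were Ctnnbip1 (r = 0.84), 9130230L23Rik (0.84), Apol9b (0.80), Tmem43 (0.79) and Cldn23 (0.79). Those most like Ada were 9130230L23Rik (0.82), Slc23a4 (0.80), Exoc3l4 (0.77), Apol9b (0.76) and Myzap (0.76). For Slc28a2 they were Apol9b (0.71), H1f2 (0.67), Yaf2 (0.67), Npas2 (0.65) and Lrrc40 (0.65). Apol9b was in all 3 sets and 9130230L23Rik in the first 2; their differences between Ex-4 and PBS at 5 h were -0.91 and -0.63. Slc28a2b ranked 3, Ada 7 and Slc28a2 16 among 12940 genes by likeness to Nt5e. The Ex-4 arrays at 5 h, on which the genes were chosen, enter these values. High r and ranks follow in part from that choice and are a description only. By deviations alone the non-member gene most like Nt5e was Tmem43 (0.75), that most like Ada was Haus5 (0.70) and that most like Slc28a2 was Btbd7 (0.69), of which Haus5 and Btbd7 had mean signals of 7.54 and 7.16, near the dim level. After Tmem43, Nt5e was most like Olfr1101 (0.71), Dlx2 (0.65), D7Ertd443e (0.64) and Nek11 (0.64). Their mean signals, 7.07, 7.38, 7.27 and 7.11, were also near or below that level.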

How the data were processed

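Per probe and array, the authors deposited log2 values, which were used as they stand. How they were normalised is not given; at any 1 rank the values of the arrays had an SD of at most 0.00218, as after quantile normalisation. The deposited non-normalized table had 60 columns of signal and detection headed by bare numbers that match no label. It was not used, and a signal filter stood in for detection p-values.

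Background was described by the mode of the log2 signal (7.02) and the SD on its lower side (0.073), and the dim level of 7.19 leaves 0.01 of it above. Probes over that level in 3 or more arrays were kept (25878 of 45281). The platform annotation named 34885 probes with 1 symbol and 18 with several; 10378 had none. Sequences and coordinates are from RefSeq tables (GRCm38.p6). The probe of highest mean stood for its gene.

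A mean for each of 9 groups was fitted to 30 arrays with limma 3.58.1 in R 4.3.3, moderating the variances by empirical Bayes (residual df 21, prior df 4.64). Adjusted p-values (Benjamini-Hochberg) cover all 12941 genes, with a threshold of 0.05. The number of arrays limits the precision. The fit was tested on simulated data. Genes named are the 10 members, list genes that passed or had the 4 smallest p of a list, and the 5 most like Nt5e, Ada and Slc28a2. Members and lists were chosen with earlier results of these data known. The alternatives tried changed the dim filter, probe choice, variance model, samples, background, smooth muscle covariate and replicate block.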

Additional observations from a re-analysis of the deposited data

Results flagged for a closer look

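Enpp3 lay on opposite sides of the PBS mean with Ex-4 at 5 h and at 1 h: every Ex-4 array was below the mean of the PBS arrays at 5 h and every one above it at 1 h. The effect at 5 h less that at 1 h was -0.567 (log2). Nt5e did the same between 5 h and 20 h, where every Ex-4 array was above the PBS mean, and the effect at 5 h less that at 20 h was -1.73. Both differences include the comparison that chose the genes and were not tested. No array stood apart in the 30 groups of 4 arrays (10 genes in 3 groups at 5 h) that were looked at.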

How the results depend on the processing

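The count of members called stayed at 0 in the 8 tested comparisons under every alternative run, except that between Ex-4 and Fgf7 at 20 h it was 0 to 1 when 1 array was left out (1, Adk, without Fgf7 replicate 3). The count of other nucleotide genes called for Ex-4 against PBS at 5 h, 1 over all arrays, was 0 when only the groups compared entered the fit, 2 with the replicate number as a block, and 0 to 2 when 1 array was left out. It was 0 without PBS 5 h replicate 1 or 2 or without Ex-4 5 h replicate 3 or 4, and 2 without Ex-4 5 h replicate 2; the cause was not tested. Same-numbered arrays of a time did not all deviate together (r over 0.1 in 7 of 9 pairs at 1 h, 8 of 12 at 5 h and 7 of 9 at 20 h), so the numbers were not taken to pair samples. They were nonetheless more alike than differently numbered ones: median r 0.17, 0.157 and 0.198 against -0.0593, -0.145 and -0.0465 at 1, 5 and 20 h, with r over 0.1 in 0 of 18, 12 of 36 and 4 of 18 differently numbered pairs. Subtracting the background moved the difference of Enpp3 at 5 h to -0.84 against PBS and -0.55 against Fgf7. In the other 131 fits of these counts the result was as over all arrays. Of the other genes called, Entpd5 for Ex-4 against PBS at 20 h kept its call in each alternative fit (against Fgf7 it was lost in 2 of 15), and those of Ampd3, Cad, Samhd1, Apobec1, Creb3l3 and Lct were each lost in at least 1, with the compared groups alone in the fit among them. The normalisation with neqc was not run, because the columns of the non-normalized table could not be assigned. Depth here is signal over background, and it limits Pnp, the second Enpp3 probe and the second Slc29a1 probe.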
